A study of Homo sapiens with 3 samples.

Results

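The RUNX2 locus and the neighbouring gene SUPT3H were described from 2 lists of peaks. Both came from chromatin immunoprecipitation followed by sequencing of SAOS2, an osteosarcoma line that lacks p53. A peak belonged to the locus when its midpoint lay within 100 kb of the body of either gene, which gave the stretch chr6:44677054-45732086 of hg19 (GRCh37), 1055 kb long. It held 22 of the 9941 RUNX2 peaks and 45 of the 27246 CBFB peaks. The cells were untreated and had been passaged fewer than 20 times. The RUNX2 library was made with an antibody raised in house against recombinant RUNX2 fragments, the CBFB library with a commercial antibody, and the third of the 3 samples, input DNA, was not analysed here. Each antibody had 1 library, so the values below have no replicate error and no difference was tested. Peaks of 1 library do not replicate each other. Read counts are not part of the lists, so the depth behind a peak is unknown. Each peak carries a MACS score, read as -10 times log10 of its p-value, which depends on the depth of its library. Scores were therefore read by rank or percentile within a list. Where scores of overlapping peaks are printed together, each belongs to its own list, and their levels cannot be compared. Between the lists, which differ in length, only ranks and percentiles were compared.

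RUNX2 is the RUNX family transcription factor that drives the differentiation of osteoblasts. RUNX proteins recognise a short DNA core through their Runt domain, and CBFB is the shared beta subunit of these factors, so it reaches chromatin through them. Like the other RUNX genes, RUNX2 is transcribed from a distal promoter (P1) and a proximal promoter (P2), which give proteins that differ at the amino terminus. SUPT3H encodes a subunit of SAGA, a coactivator complex that acetylates histones. It is transcribed from the opposite strand, and its promoter lies in a RUNX2 intron between P1 and P2.

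In the GENCODE annotation RUNX2 (ENSG00000124813, plus strand) spans chr6:45295894-45632086, 336 kb, and SUPT3H (ENSG00000196284, minus strand) spans chr6:44777054-45345690, 569 kb. The gene bodies share 49.8 kb. P1 held 5 start sites of transcripts with an annotated protein between 45295894 and 45296464, and P2 held 4 between 45389773 and 45390314. At 1 of the P1 starts, the first, and 2 of the P2 starts, at 45389773 and 45389836, the transcript is annotated as a target of nonsense-mediated decay. The first P2 start lay 93.9 kb downstream of the first P1 start. The main SUPT3H start, at 45345671, lay 49.8 kb downstream of the first P1 start.

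The promoter sequences are shown first, because the peaks at P1 and at P2 sit differently on them. They are the 250 bases before the RefSeq starts of the P1 and P2 transcripts and before the RefSeq SUPT3H start at 45345671. All came from promoter sequences of GRCh38.p14, and each matched chromosome 6 of GRCh37 exactly once. They occupy chr6:45295817-45296066 on the plus strand, chr6:45389762-45390011 on the plus strand and chr6:45345672-45345921 on the minus strand. The fourth sequence gives the 30 bases from 45296079 to 45296108, which begin 13 bases downstream of the RefSeq P1 start. Capitals mark copies of the RUNX core, TGTGGT on either strand, which reads ACCACA when it lies on the other strand.
RUNX2 P1: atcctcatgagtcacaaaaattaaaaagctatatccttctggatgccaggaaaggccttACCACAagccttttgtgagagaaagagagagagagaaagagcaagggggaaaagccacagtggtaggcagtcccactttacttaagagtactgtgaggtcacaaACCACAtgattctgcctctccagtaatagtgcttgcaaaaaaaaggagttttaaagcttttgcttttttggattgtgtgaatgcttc
RUNX2 P2: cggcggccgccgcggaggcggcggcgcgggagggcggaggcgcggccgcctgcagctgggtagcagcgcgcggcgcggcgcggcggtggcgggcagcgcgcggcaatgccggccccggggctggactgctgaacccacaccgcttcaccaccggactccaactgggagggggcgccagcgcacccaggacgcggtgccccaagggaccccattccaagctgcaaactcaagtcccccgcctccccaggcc
SUPT3H: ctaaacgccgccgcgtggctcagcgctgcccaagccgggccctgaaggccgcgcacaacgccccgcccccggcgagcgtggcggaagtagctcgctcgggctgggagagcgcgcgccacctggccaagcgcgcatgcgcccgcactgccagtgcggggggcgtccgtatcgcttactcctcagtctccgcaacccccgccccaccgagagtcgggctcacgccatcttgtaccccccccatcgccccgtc
RUNX2 P1, after the start: aacaACCACAgaACCACAagtgcggtgcaa
P1 held 2 cores before the start, which began 191 and 87 bases upstream of it, and 2 more after it. P2 and SUPT3H held 0 in the bases shown. Of 35116 RefSeq promoters, 11% held at least 1 core in the 250 bases before the start and 0.971% held at least 2. The distal promoter of the paralog RUNX3 also held 2 in these bases, and its proximal promoter held 0. The P1 sequence had a GC content of 41.6%, against 78.0% at P2 and 73.6% at SUPT3H. RefSeq has another SUPT3H start at 45345399, whose 250 bases are not shown. They held 0 cores and had a GC content of 67.6%. A match of letters describes the sequence only.

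Both lists had their highest peak of the locus at P1. The RUNX2 peak, chr6:45295403-45296767, scored 681.08 and ranked 53 of 9941. Its midpoint lay 18 bp from the nearest P1 start, and it covered all 5 P1 starts. Of the 4557 RUNX2 peaks within 5 kb of any annotated start, 26 scored at least as high, this peak included, and on chromosome 6 this held for 2 of 939. The CBFB peak, chr6:45295224-45296878, scored 1926.11 and ranked 103 of 27246. It contained the RUNX2 peak, and its midpoint lay 3 bp from a P1 start. Both peaks overlapped untranslated and coding exon sequence of RUNX2 and lay within a SUPT3H intron.

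The P1 RUNX2 peak held 5 copies of the core, a number reached by 3.03% of the 9928 RUNX2 peaks whose sequence was searched. The peak was 1365 bp wide, against a list median of 937 bp, and the count was not adjusted for width. Within the locus the RUNX2 peak chr6:44679986-44681419, beyond the SUPT3H end, also held 5. The copies at P1 began at 45295876, 45295980, 45296083, 45296091 and 45296212. All 5 read TGTGGT on the minus strand, against the direction of RUNX2 transcription. The third lay 1 bp from the peak midpoint, and the fourth began 8 bases after it. They are the pair shown in the 30 bases above. The next peak downstream was a CBFB peak at chr6:45300568-45301819, which scored 128.74, ranked 12882 and had no RUNX2 partner. Its midpoint lay 4729 bp from the last P1 start.

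P2 differed from P1 in where the RUNX2 peak lay. No RUNX2 peak covered a P2 start. The nearest, chr6:45388154-45389295, scored 117.04 and ranked 2905, and its midpoint lay 1049 bp upstream of the first P2 start, with 478 bp between its edge and that start. From 45390222, the first P2 start of a transcript annotated as protein-coding, the distances were 1498 and 927 bp. It overlapped the exon of ENSG00000271857, a long non-coding RNA on the opposite strand. The CBFB peak at P2, chr6:45387858-45392674, was 4817 bp wide, scored 554.97 and ranked 1960. It covered all 4 P2 starts, and its midpoint lay 44 bp from one of them. At least this width was reached by 0.782% of the CBFB list. The RUNX2 peak lay wholly inside it, took up 23.7% of its width and was centred 1542 bp from its midpoint, the widest offset among the overlapping pairs of the locus.

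The RUNX2 peak beside P2 held 3 cores, all within 100 bp of its midpoint and, as at P1, all on the minus strand. They began at 45388640, 45388680 and 45388734. It was the RUNX2 peak of the locus with the most cores this close to its midpoint. The 201 bases around the midpoint, chr6:45388624-45388824 on the plus strand, are shown with the cores in capitals, for comparison with the core-free P2 bases above.
RUNX2 peak beside P2: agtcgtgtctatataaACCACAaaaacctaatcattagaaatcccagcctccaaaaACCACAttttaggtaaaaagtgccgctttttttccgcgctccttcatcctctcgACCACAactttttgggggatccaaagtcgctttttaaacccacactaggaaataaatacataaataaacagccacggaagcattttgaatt
No peak of either list lay within 5 kb of the SUPT3H start. The nearest RUNX2 midpoint, that of the peak beside P2, was 43053 bp away, and the nearest CBFB midpoint was 44477 bp away. The start lay in a stretch of 91.4 kb without a RUNX2 peak and of 86.0 kb without a CBFB peak. Starts of shorter SUPT3H transcripts at 44923247 and 45073756 had their nearest RUNX2 midpoints at 7050 and 6972 bp, also beyond 5 kb.

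**Figure D1:**
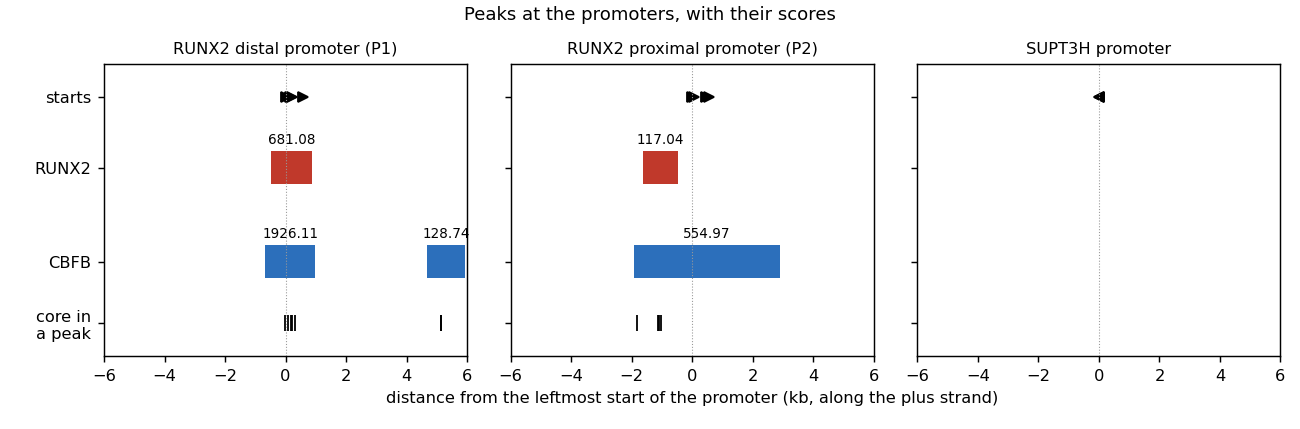
RUNX2 peaks (red) and CBFB peaks (blue) with their scores around the start sites of P1, P2 and SUPT3H, by distance from the leftmost start in kb. Arrowheads are annotated starts and ticks are RUNX cores inside peaks. Both P1 peaks cover the starts, the P2 starts are covered by the CBFB peak and not by the RUNX2 peak, and the SUPT3H start has no peak in view.

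For comparison, the paralogs RUNX1 and RUNX3, which are built with a distal and a proximal promoter of the same kind, were read in the same way. At RUNX3 P1 the highest RUNX2 peak scored 266.2, at the 94.7th percentile of the RUNX2 list, and RUNX3 P2 had no peak of either list within 5 kb. At RUNX1 the highest RUNX2 peak at P1 scored 318.3, at the 96.5th percentile, and that at P2 scored 111.68, at the 68.0th percentile. In each of the 3 genes P1 thus carried the higher RUNX2 peak, and the peak at RUNX2 P1, at the 99.5th percentile, was the highest of them. In the CBFB list the order was another one, with 3100 at RUNX1 P1, the highest score of that list, 1926.11 at RUNX2 P1 and 1071.82 at RUNX3 P1. The highest score of the RUNX2 list was also 3100. The RUNX1 peak covered the P1 starts, but its midpoint lay 1426 bp from the nearest of them. This distance was 3 bp at RUNX2 P1 and 12 bp at RUNX3 P1. The CBFB gene had no peak of either list within 5 kb of its main starts.

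Across the locus the 22 RUNX2 peaks scored from 50.81 to 681.08 with a median of 91.83, against 84.11 over the whole list. Of these, 12 were at or above the list's median, 6 in its top 25% and 1, the P1 peak, in its top 10%. The 45 CBFB peaks scored from 50.24 to 1926.11 with a median of 127.37, against 121.115 over the whole list. Of these, 23 were at or above the list's median, 13 in its top 25% and 6 in its top 10%. The median peak of the locus was thus close to that of its list, and after the P1 peak the next RUNX2 peak scored 173.59. By position at the midpoint, 8 RUNX2 peaks lay in RUNX2 introns alone, 8 in SUPT3H introns, 1 in a SUPT3H exon, 1 at the P1 exon and 4 between genes.

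**Figure D2:**
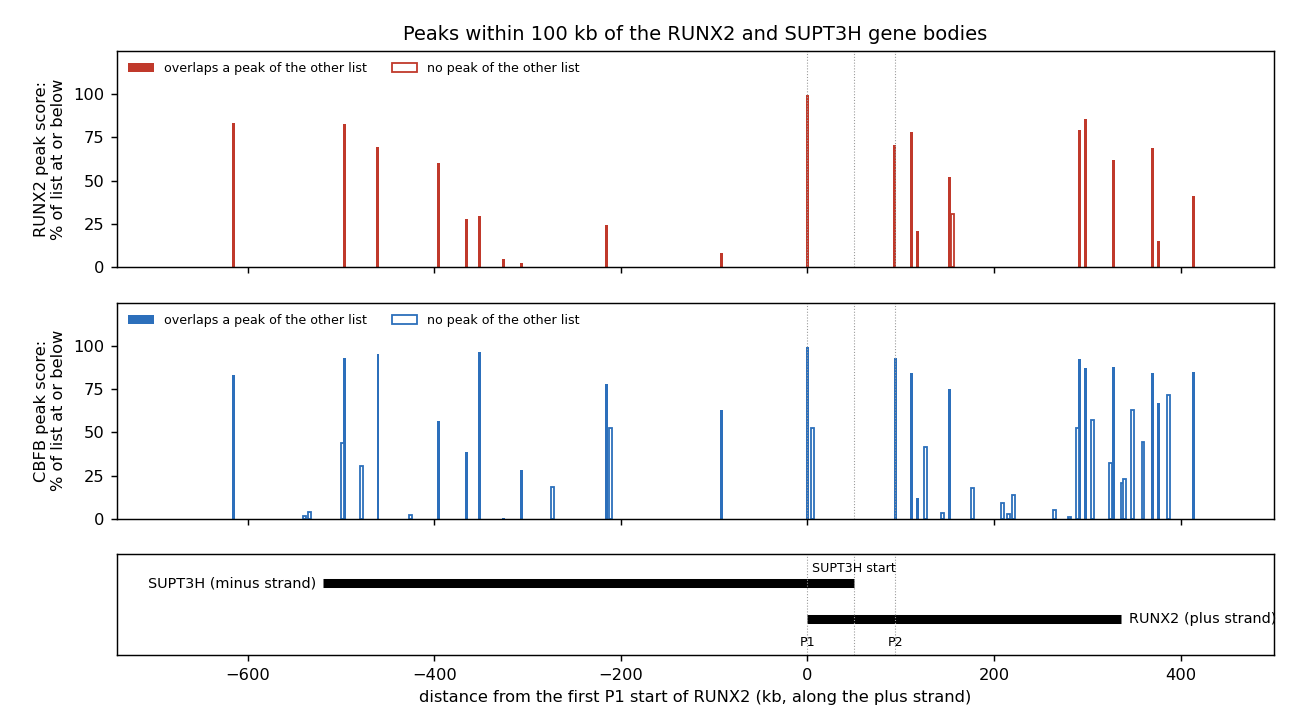
Peaks of the RUNX2 list (top) and the CBFB list (middle) by distance from the first P1 start in kb, with the gene bodies of SUPT3H and RUNX2 below. Bar height is the percent of the list that scores at or below the peak, and open bars have no overlapping peak of the other list. In both lists the P1 peak is the highest of the locus, and no bar of either list stands at the SUPT3H start.

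SUPT3H outside the stretch shared with RUNX2 held 9 RUNX2 peaks and 14 CBFB peaks, and each of the 9 overlapped a CBFB peak. The 3 nearest the 3′ end of SUPT3H scored highest. They were chr6:44798789-44799846, with a score of 156.36, chr6:44835019-44836076, with 114.58, and chr6:44900020-44900959, with 97.22. The first pair lay in introns and the third overlapped a coding exon. The other 6, all intronic, scored between 50.81 and 65.43.

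Those 6 low-scoring RUNX2 peaks had CBFB partners over a wide range. The peak chr6:44944291-44945464 scored 65.43 and ranked 6997, at the 29.6th percentile of the RUNX2 list. Its CBFB partner scored 794.88 and ranked 997, at the 96.3rd percentile of the CBFB list and second in score only to the P1 peak among the CBFB peaks of the locus. The peak chr6:45080349-45081107 scored 62.07 with a partner of 260, and chr6:45203336-45204183 scored 53.44 with a partner of 164.96. These 3 thus had partners above the median of the CBFB list. The peaks chr6:44929880-44930715, chr6:44969147-44970061 and chr6:44989401-44990144 scored 64.37, 51.94 and 50.81, with partners of 95.95, 50.24 and 79.25, all below it.

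RUNX2 outside the shared stretch held 8 RUNX2 peaks and 18 CBFB peaks. One is the peak beside P2, and the other 7 lay in introns. Downstream of P2 came chr6:45406302-45407556, with a score of 138.51 and a CBFB partner of 333.82, and chr6:45413368-45414387, with 59.97 and a partner of 60.15. Next were chr6:45447952-45448966, with 86.44 and a partner of 232.23, and chr6:45451038-45452369, with 66.14. The last of these was the one RUNX2 peak of the locus without an overlapping CBFB peak.

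The remaining 3 lay past the usual 3′ end of RUNX2. The median end of its coding transcripts was 45518816, and 2 of the annotated transcripts run on for another 113 kb. RUNX2 peaks at chr6:45587017-45588487, chr6:45593000-45595279 and chr6:45623167-45624297 fell in this extension and are intronic only through those transcripts. They scored 140.79, 173.59 and 100.53, with CBFB partners of 547.24, 387.52 and 397.01. The middle one was the highest RUNX2 peak of the locus after P1 and, at 2280 bp, the widest. The extension also held 5 CBFB peaks without a RUNX2 partner, among its 8.

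The flanks held 4 RUNX2 peaks, all between genes and all with a CBFB partner. On the side of the SUPT3H 3′ end, chr6:44679986-44681419 scored 158.79 with a partner of 320.49. Beyond the RUNX2 end, chr6:45665205-45666239 scored 113.8 with a partner of 331.28, chr6:45671824-45672928 scored 56.71 with 182.81 and chr6:45709244-45710160 scored 74.75 with 347.1. The first of the 4 lay 96.4 kb from the SUPT3H body, and the next RUNX2 peak outward, just past the limit at 105 kb, scored 219.06. On the RUNX2 side the outermost peak inside the limit was 77.6 kb away, and the next RUNX2 peak outward was 180 kb away with a score of 284.76.

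Overlap of at least 1 bp with the other list was counted next, to set RUNX2 peaks with and without CBFB side by side. At the locus 21 of 22 RUNX2 peaks (95.5%, exact Clopper-Pearson 95% interval 77.2 to 99.9) overlapped a CBFB peak, against 94.2% of the whole RUNX2 list. Of the CBFB peaks, 21 of 45 (46.7%, 31.7 to 62.1) overlapped a RUNX2 peak, against 33.8% of the whole CBFB list. The interval around each locus share holds the share of its whole list. Such intervals cover counting error only.

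Each of the 21 overlapping RUNX2 peaks had a CBFB peak of its own, and in each pair the CBFB peak was wider. In 16 pairs the RUNX2 peak lay wholly inside the CBFB peak, and the lowest share of a RUNX2 peak that was covered was 87.9%. The midpoints were 82 bp apart at the median, against 96 bp over the 9365 overlapping RUNX2 peaks of the whole list. The CBFB peak stood at the higher percentile of its own list in 18 of 21 pairs, against 84.8% over the whole list. Of the whole lists, 94.2% of RUNX2 peaks and 33.8% of CBFB peaks overlapped the other list. A higher CBFB percentile therefore cannot be read as stronger binding of CBFB. Spearman's rho between the scores was 0.72 over the 21 pairs, against 0.60 over the whole list, as a description across peaks of the same pair of libraries. The pair that departed most towards CBFB was the intronic SUPT3H peak with the partner of 794.88.

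**Figure D3:**
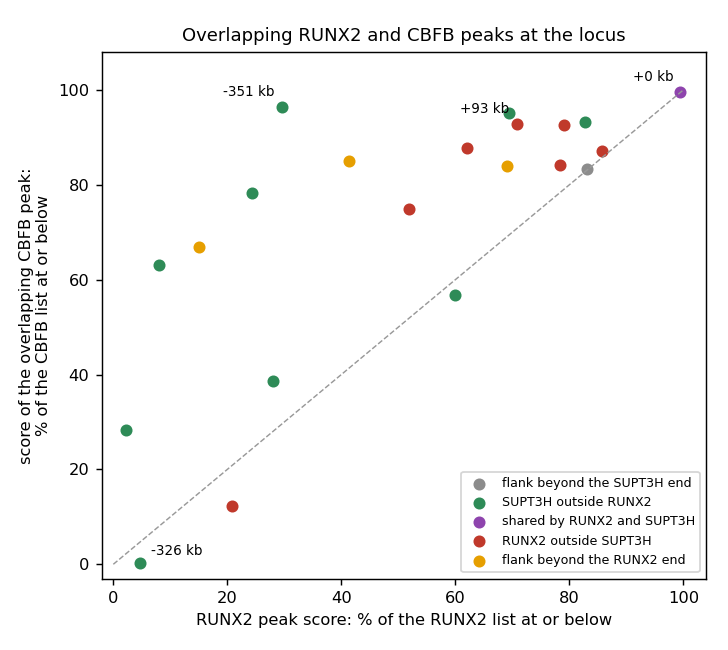
The 21 overlapping pairs, each point a RUNX2 peak, by the percent of the RUNX2 list (x axis) and of the CBFB list (y axis) that score at or below the pair's peaks. Colours give the stretch of the locus, labels the distance from the first P1 start in kb, and the dashed line equal percentiles. Most points, 18 of 21, lie above the line, against 84.8% of pairs over the whole list.

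CBFB peaks that overlapped a RUNX2 peak had the higher median score, a difference that was not tested. The 21 with a RUNX2 peak had a median score of 331.28 (50.24 to 1926.11), and 17 were at or above the median of the CBFB list. The 24 without one had a median of 70.755 (50.79 to 208.54), and 6 were at or above it. The ranges overlap. Scores of the whole CBFB list split in this way are not given here, so the difference cannot be read as particular to the locus. The highest of the 24 were chr6:45682317-45683824 with 208.54 and chr6:45643148-45644902 with 164.64, both beyond the RUNX2 end, and chr6:45600761-45602569 with 141.24 in the RUNX2 extension. They were followed by chr6:45584909-45586664, also in the extension, with 128.84, and by the peak downstream of P1 with 128.74.

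The gene bodies held many peaks for single genes. The RUNX2 body held 9 RUNX2 peaks and 20 CBFB peaks, numbers that 23 and 24 of 20098 coding genes reached, RUNX2 included. The SUPT3H body held 10 RUNX2 peaks and 16 CBFB peaks, numbers reached by 17 and 59 coding genes. The P1 peaks count for both. RUNX1, whose body is 1217 kb long, held 22 and 41, numbers reached by 1 and 2 coding genes, itself included, so such numbers were not particular to RUNX2 and SUPT3H. Both are long genes, and the 1498 coding genes of at least 200 kb held a median of 0 RUNX2 peaks and 2 CBFB peaks. Within the locus SUPT3H outside the shared stretch held 1.56 CBFB peaks per RUNX2 peak, and RUNX2 outside it held 2.25. Of the other 9 annotated genes in reach, ENSG00000286417, a long non-coding RNA that overlaps the SUPT3H 3′ end, held the midpoints of 3 CBFB peaks and of no RUNX2 peak, and the others, RUNX2-AS1 and MIR586 among them, held no peak midpoint of either list.

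Per length, the locus held 20.9 RUNX2 peaks per Mb (exact Poisson 95% interval 13.1 to 31.6) and 42.7 CBFB peaks per Mb (31.1 to 57.1). Chromosomes 1 to 22 and X held 3.50 and 9.59 per Mb, so the locus was 5.96 and 4.45 times as dense. RUNX3 with 100 kb to either side was denser than the locus, at 30.1 and 82.8 per Mb. Chromosome 6 alone was above this average, at 5.61 and 13.9 per Mb, and against it the locus was 3.72 and 3.06 times as dense. In windows of 1 Mb, the window from 45 Mb held 15 RUNX2 and 39 CBFB peaks. The neighbouring window from 44 Mb held 32 and 63, of which 8 and 13 belonged to the locus. The 19 windows around them held 0 to 15 RUNX2 peaks with a median of 2, and 0 to 36 CBFB peaks with a median of 9. The density was thus high over a stretch longer than the locus, and most peaks of the densest window lay outside it. The number of copies of this stretch in SAOS2 cells was not measured here.

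**Figure D4:**
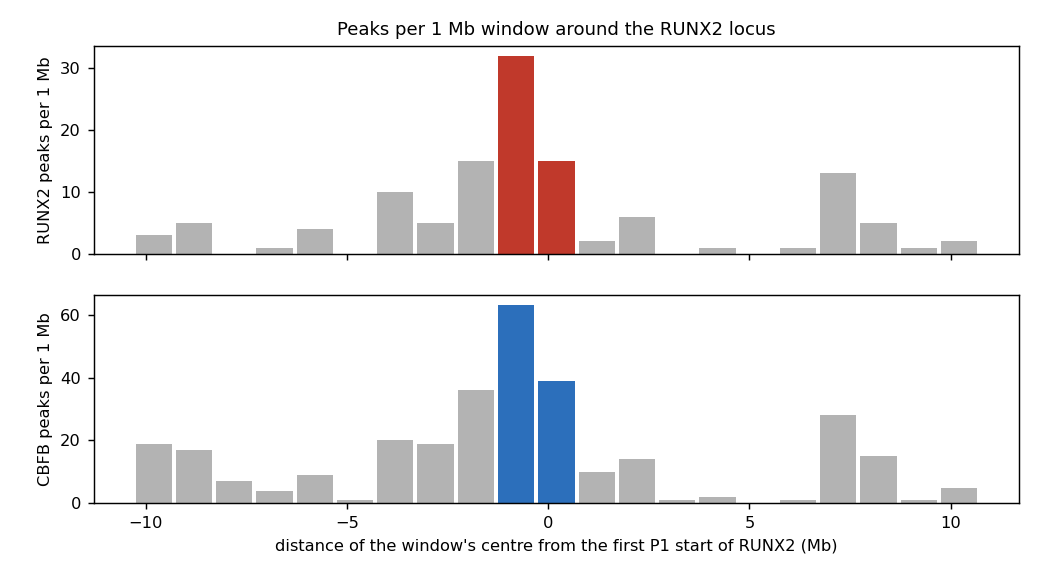
RUNX2 peaks (top) and CBFB peaks (bottom) per window of 1 Mb, by the distance of the window's centre from the first P1 start in Mb. The coloured windows are those from 44 and 45 Mb, which the locus overlaps, with 32 and 15 RUNX2 peaks and 63 and 39 CBFB peaks.

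The RUNX core was then searched in the peaks. It lay within 100 bp of the midpoint in 11 of 22 RUNX2 peaks (50%, 28.2 to 71.8), against 43.2% of the whole RUNX2 list, and in 25 of 45 CBFB peaks (55.6%, 40.0 to 70.4), against 41.6% of the whole CBFB list. The RUNX2 interval holds the share of the list, and the share of the CBFB list lies just inside the CBFB interval. Among CBFB peaks the core was present in 13 of the 21 with a RUNX2 peak and in 12 of the 24 without. Anywhere in the peak it was found in 18 RUNX2 peaks (81.8%, against 78.1% of the list) and 39 CBFB peaks (86.7%, against 80.9%). These shares were not adjusted for width. The median width at the locus was 1058 bp for RUNX2 peaks, against 937 bp over the list. For CBFB peaks it was 1288 bp, against 1148 bp. By stretch, the core lay near the midpoint in 6 of the 9 RUNX2 peaks of SUPT3H and in 2 of the 8 of RUNX2 outside the shared stretch.

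The 22 RUNX2 peaks held 44 cores in all, 29 on the minus strand and 15 on the plus strand. The CBFB peaks of the locus held 89, with 50 on the minus strand and 39 on the plus strand. Strand counts over the whole lists are not given here, and no strand preference was tested. Among the RUNX2 peaks other than those at P1 and beside P2, 1 held 2 or more cores within 100 bp of its midpoint. It was the intronic SUPT3H peak chr6:45080349-45081107. The 201 bases around 3 midpoints are shown to set such peaks side by side, on the plus strand with the cores in capitals. The first, chr6:44835447-44835647 in a SUPT3H intron, has 1 core 5 bp from the midpoint. The second, chr6:45080628-45080828, has 2. The third, chr6:45594039-45594239 in the RUNX2 extension, is the highest RUNX2 peak of the locus after P1 and has none in the bases shown, with its nearest core 128 bp from the midpoint.
SUPT3H intron, 1 core: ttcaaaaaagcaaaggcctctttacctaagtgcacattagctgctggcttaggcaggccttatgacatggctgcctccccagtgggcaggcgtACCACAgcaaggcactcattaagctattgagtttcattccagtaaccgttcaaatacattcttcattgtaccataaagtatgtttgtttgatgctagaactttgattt
SUPT3H intron, 2 cores: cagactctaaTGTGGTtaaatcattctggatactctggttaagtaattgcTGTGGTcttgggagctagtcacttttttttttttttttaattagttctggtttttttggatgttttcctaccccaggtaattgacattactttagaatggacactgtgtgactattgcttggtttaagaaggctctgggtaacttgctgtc
RUNX2 extension, no core: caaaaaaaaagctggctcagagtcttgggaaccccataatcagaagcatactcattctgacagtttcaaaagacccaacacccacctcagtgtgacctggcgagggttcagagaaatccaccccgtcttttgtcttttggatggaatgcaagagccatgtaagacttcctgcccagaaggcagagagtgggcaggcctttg

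**Figure D5:**
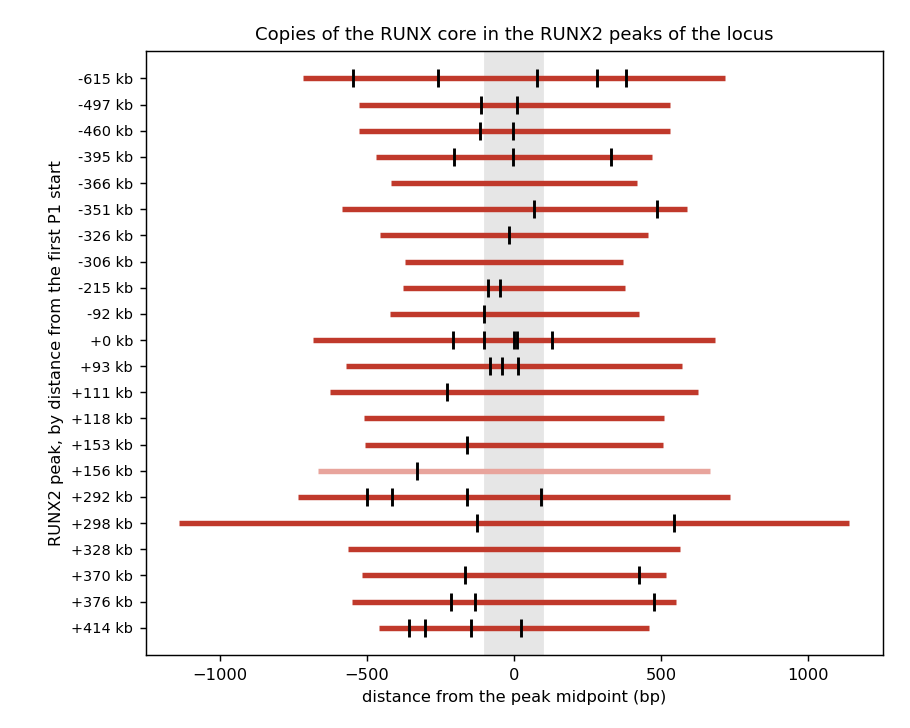
The 22 RUNX2 peaks of the locus, in order along the plus strand and labelled by distance from the first P1 start in kb, with each core as a black tick by its distance from the peak midpoint in bp. Bars span the peaks, the pale bar has no CBFB partner, and the grey band marks 100 bp to either side of the midpoint. The peaks at P1 and at -615 kb have 5 cores each, the one beside P2 has 3 in the band, and 11 of 22 peaks have at least 1 there.

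Other motifs were counted in the same 201 bases, on both strands. The median GC content of these bases was 42.5% in the RUNX2 peaks of the locus, against 49.8% over the list. In the CBFB peaks it was 44.8%, against 48.8%. The shares below were not adjusted for this difference in base composition. The longer RUNX motif TGTGGTT, which contains the core, was in 8 of 22 RUNX2 peaks (36.4%, against 23.4% of the list). GGAATG, the motif of TEAD factors, was also in 8 of 22 (36.4%, 17.2 to 59.3), against 15.5% of the list, and in 14 of 45 CBFB peaks (31.1%, 18.2 to 46.6), against 14.4%. Both intervals for this motif lie above the share of the list, but the CBFB peaks include the sequences of the RUNX2 peaks, and it was one of 8 motifs counted. TGANTCA, the motif of AP-1, was in 2 RUNX2 peaks (9.09%, against 13.1%). GGGCGG, the GC box, was in 1 (4.55%, against 13.7%). CCGGAA, the ETS motif, was in 0 of 22, which allows a share of up to 15.4%, against 6.10% of the list. TAATTA, bound by homeodomain proteins, was in 1 (4.55%, against 6.34%) and CANNTG, the E-box, in 11 (50%, against 62.9%). In the CBFB peaks 2 of these motifs went the other way. The AP-1 motif was in 7 of 45 (15.6%, against 11.9% of the CBFB list) and TAATTA in 3 (6.67%, against 6.02%). The GC box, ETS and E-box shares lay below those of the CBFB list as well.

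The partners of SUPT3H in the SAGA complex were read for peaks at their promoters. Among 13 genes of the complex, 2 had a RUNX2 peak within 5 kb of a start, against 14.7% of coding genes, and 4 had a CBFB peak, against 34.9%. The first are TADA1, an adaptor of the complex, and USP22, its deubiquitinase, and the CBFB peaks were at these and at TADA2B and SUPT7L, all named after their values were seen. These counts are near what the shares of all coding genes give, and SUPT3H itself had no promoter peak.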

How the data were processed

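The series holds RUNX2 ChIP, CBFB ChIP and input DNA from SAOS2 cells, 1 library each, grouped by the labels. The submitters' processing notes name CASAVA 1.8.2 and MACS 1.4.1 with hg19. The aligner, the calling limit, the read depth and the use of input as control are not given in the sources used here. The deposited lists give the position and score of each peak, called per library by the authors, and the lowest score is 50. Scores depend on depth. Coordinates are counted from 1, and the midpoint is the mean of start and end, rounded down.

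Gene models came from GENCODE release 44, lifted to GRCh37. P1 and P2 were the starts of transcripts whose annotated protein has the matching amino terminus, targets of nonsense-mediated decay included. A start far from the others of its group was left out. This held for the RUNX1 start at 37376965, which had 0 peak midpoints of either list within 5 kb. For SUPT3H and CBFB, starts of protein-coding transcripts were used, and a promoter peak had its midpoint within 5 kb, the distance used by the study. Sequences were read from GRCh37, and promoters from RefSeq. Where 2 or more CBFB peaks overlapped, the highest score was taken. Shares carry exact Clopper-Pearson 95% intervals and densities exact Poisson 95% intervals. Python 3.11.15, pandas 2.3.3 and scipy 1.17.1 were used, and the overlap and motif searches were tested on simulated data.

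The members and lists were chosen with earlier results of these data known. Named were RUNX2, SUPT3H, other genes in reach that hold a peak, the paralogs, CBFB and 13 SAGA genes. Described singly were every RUNX2 peak, the CBFB peaks at promoters and the 5 highest CBFB peaks without a RUNX2 peak. MIR586 and RUNX2-AS1 were named outside this rule, after their values were seen.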

Additional observations from a re-analysis of the deposited data

How the results depend on the processing

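Of 40 alternative settings, 27 left a value within its interval or within 1.5 times and 13 moved it. Some of the 27 could not have moved. At the SUPT3H start the settings could only remove peaks from a count of 0. The peaks at P1 and P2 already scored above the median of their list before that limit was set. With peaks at or above the median score, 12 RUNX2 and 23 CBFB peaks remained at the locus. The RUNX2 share that overlapped CBFB was then 100% with both lists restricted. It was 68.2% with as many top CBFB peaks as RUNX2 peaks, where the CBFB share was 93.75%. The shares of the whole lists under these settings are not given here, so these values cannot be read as particular to the locus. Within 1 kb of the starts, 1 CBFB peak remained at P1 and 0 RUNX2 peaks at P2. The core was anywhere in the peak in 81.8% of RUNX2 peaks and 86.7% of CBFB peaks, against 78.1% and 80.9% of the lists, without adjustment for peak width. It was in 33.3% of CBFB peaks within 50 bp of the midpoint. The longer motif was in 31.1% of CBFB peaks. Against chromosome 6 alone the locus was 3.72 and 3.06 times as dense in RUNX2 and CBFB peaks. No paired analysis was possible because the groups share no more than 1 replicate number and nothing was tested. No value has a replicate error, and without read counts a missing peak, as at the SUPT3H start, says only that none was listed at the unknown depth.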
